A study of Mus musculus with 30 samples.

Results

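The genes described here are 41 genes of the immediate early and delayed early response to serum, followed in mouse embryonic fibroblasts that were being converted to muscle by MyoD. They were taken by symbol from the annotation of the array. Where several probe sets carried 1 symbol, as for 17 of the genes, the brightest one on average stood for the gene. A probe set was found for 40 of the 41 symbols, and Areg, which had none in that annotation, was dropped. The 40 measured genes are set against all 18193 genes of the arrays.

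Gene expression had been measured on 30 Affymetrix mouse genome arrays, in 10 groups of 3. All cells were fibroblasts from MyoD-/-/Myf5-/- embryos, the controls included, so they lack their own MyoD and Myf5. They carried 1 of 3 retroviruses. ER-MyoD wt is mouse MyoD, the myogenic transcription factor, fused to the hormone-binding domain of the estrogen receptor. ER-MyoD RRR is the same fusion with lysines 99, 102 and 104 mutated so that they can no longer be acetylated, and empty retrovirus carries no MyoD. The cells were kept in a differentiation medium with beta-estradiol, the hormone that activates such a fusion. Sampling was at 6, 12 and 24 h for each retrovirus, and also at 0 h for ER-MyoD wt. None of the 30 arrays was of another retrovirus at 0 h, so the changes from 0 h have no control without ER-MyoD wt. Medium, hormone and MyoD activity may all differ between the 0 h and later arrays of ER-MyoD wt, and they cannot be told apart. Nothing in the labels says that the 3 replicates of a group came from separate cultures. The p-values therefore cover the spread among these arrays alone, which may be technical. Precision is limited by how few arrays a group has.

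Immediate early genes are switched on within minutes of serum or growth factor treatment without new protein synthesis. Growth factor receptors signal through Ras, Raf, Mek and Erk kinases to Srf with its Elk partners and to Creb, which act on the promoters of these genes. Their products include transcription factors of the Fos, Jun, Egr, Klf and Nr4a families, secreted growth factors that signal back to the cell, and phosphatases and RNA-binding proteins that end the response. In myoblasts and fibroblasts, serum and growth factors sustain proliferation and oppose muscle differentiation, and differentiation media usually hold little serum.

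The promoter sequences of 8 of these genes are shown because they carry the binding motifs of the factors named above. Each of the 8 was lower at 1 or more later times than at 0 h in ER-MyoD wt. So were most of the 40, with 27 lower at 6 h, 29 at 12 h and 28 at 24 h (8.2%, 9.86% and 16.2% of all genes). Jun and Ier3, whose windows held neither of the motifs printed in capitals below, were among those. A link between motif and fall was not tested. Promoter windows of 300 bases, from 250 before to 50 after an annotated start (RefSeq, GRCm38.p6), were found for 28 of the 41 symbols, with 35 windows in all since some genes have several starts. Both strands were searched. The CArG box, the motif of Srf, was in 7 of 35 windows of these genes (20%) and in 1.63% of all 32851 windows. The windows with it belonged to Dusp5, Egr2, Srf and Zfp36, and 4 of the 7 belonged to Egr2, most of them overlapping each other. The 150 bases before 1 start of each read as follows, 5′ to 3′ on the gene's strand, with CArG boxes in capitals.

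Dusp5, chr19:53528995-53529144, plus strand: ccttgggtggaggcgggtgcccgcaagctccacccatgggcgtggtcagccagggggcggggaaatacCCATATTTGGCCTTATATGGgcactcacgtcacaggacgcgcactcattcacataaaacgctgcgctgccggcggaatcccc
Egr2, chr10:67537416-67537565, plus strand: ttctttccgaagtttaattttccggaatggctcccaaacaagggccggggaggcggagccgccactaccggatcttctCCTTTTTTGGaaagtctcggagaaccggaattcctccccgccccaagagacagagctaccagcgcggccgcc
Srf, chr17:46556163-46556312, minus strand: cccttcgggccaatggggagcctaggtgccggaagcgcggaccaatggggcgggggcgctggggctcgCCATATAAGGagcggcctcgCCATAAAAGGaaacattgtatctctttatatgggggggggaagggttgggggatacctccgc
Zfp36, chr7:28379229-28379378, minus strand: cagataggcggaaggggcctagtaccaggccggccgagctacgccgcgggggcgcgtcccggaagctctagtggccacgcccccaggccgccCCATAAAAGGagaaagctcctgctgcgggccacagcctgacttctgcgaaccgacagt

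The cAMP response element TGACGTCA, a motif of Creb and Atf proteins, was in 5 of the 35 windows (14.3%) and in 1.79% of all windows. Apart from Areg, which was not measured, its bearers were Dusp1, Errfi1, Maff and Plk2, whose sequences follow with the element in capitals.

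Dusp1, chr17:26508473-26508622, minus strand: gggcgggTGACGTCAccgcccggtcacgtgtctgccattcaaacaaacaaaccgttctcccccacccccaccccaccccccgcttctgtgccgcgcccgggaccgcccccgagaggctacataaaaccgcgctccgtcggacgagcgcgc
Errfi1, chr4:150854920-150855069, plus strand: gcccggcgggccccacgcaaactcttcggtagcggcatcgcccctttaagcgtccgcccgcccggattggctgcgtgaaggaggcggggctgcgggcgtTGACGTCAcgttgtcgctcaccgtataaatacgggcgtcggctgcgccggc
Maff, chr15:79347370-79347519, plus strand: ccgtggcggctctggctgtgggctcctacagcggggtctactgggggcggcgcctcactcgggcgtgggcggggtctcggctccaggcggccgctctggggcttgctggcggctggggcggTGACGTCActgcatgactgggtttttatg
Plk2, chr13:110394894-110395043, plus strand: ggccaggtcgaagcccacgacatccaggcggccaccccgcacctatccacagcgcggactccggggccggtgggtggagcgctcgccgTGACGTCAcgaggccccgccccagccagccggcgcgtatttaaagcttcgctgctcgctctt

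The shorter core TGACG, which the full element also contains, was in 22 of the 35 windows (62.9%) and in 20.8% of all windows. The AP-1 motif TGANTCA was in 2 windows (5.71%, against 7.81% of all), those of Lif and Plaur. The E-box CAGCTG, to which myogenic factors bind, was in 7 windows (20%, against 16.3% of all). A match describes these letters in this window and shows no binding.

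Before the results, 3 arrays stood apart from the rest. For 27 of the 30 arrays the nearest other array, by correlation, was in the same group. The exceptions were replicates 1 and 3 of empty retrovirus 12 h and replicate 2 of ER-MyoD RRR 6 h. The 3 arrays taken as standing apart were chosen on other measures and are not the same 3. Replicate 2 of ER-MyoD RRR 6 h stood out in RNA quality, with 3′ to 5′ ratios of 2.44 (Gapdh) and 3.61 (Actb) that no other array reached. Replicate 1 of empty retrovirus 12 h had the highest median signal (64.1, against 38.0 to 59.2 elsewhere), and replicate 3 of ER-MyoD wt 24 h had the lowest mean correlation with the other arrays, although its nearest array was of its own group. The summed signal of 10 skeletal muscle markers was 40340 to 47554 on the ER-MyoD wt 24 h arrays, 29024 to 31982 for ER-MyoD RRR 24 h and 215 to 274 for empty retrovirus 24 h. On the ER-MyoD wt arrays at 0 h this sum was already 1122 to 1234, and on no empty retrovirus array did it exceed 422. The summed signal of 12 fibroblast markers was 48690 to 69562 at 0 h, and no group lacked them. On no array did the summed markers exceed 1039 for macrophages and blood cells, 409 for endothelium or 915 for epithelium. In such bulk samples, fewer cells of a type and less RNA per cell cannot be told apart.

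**Figure D1:**
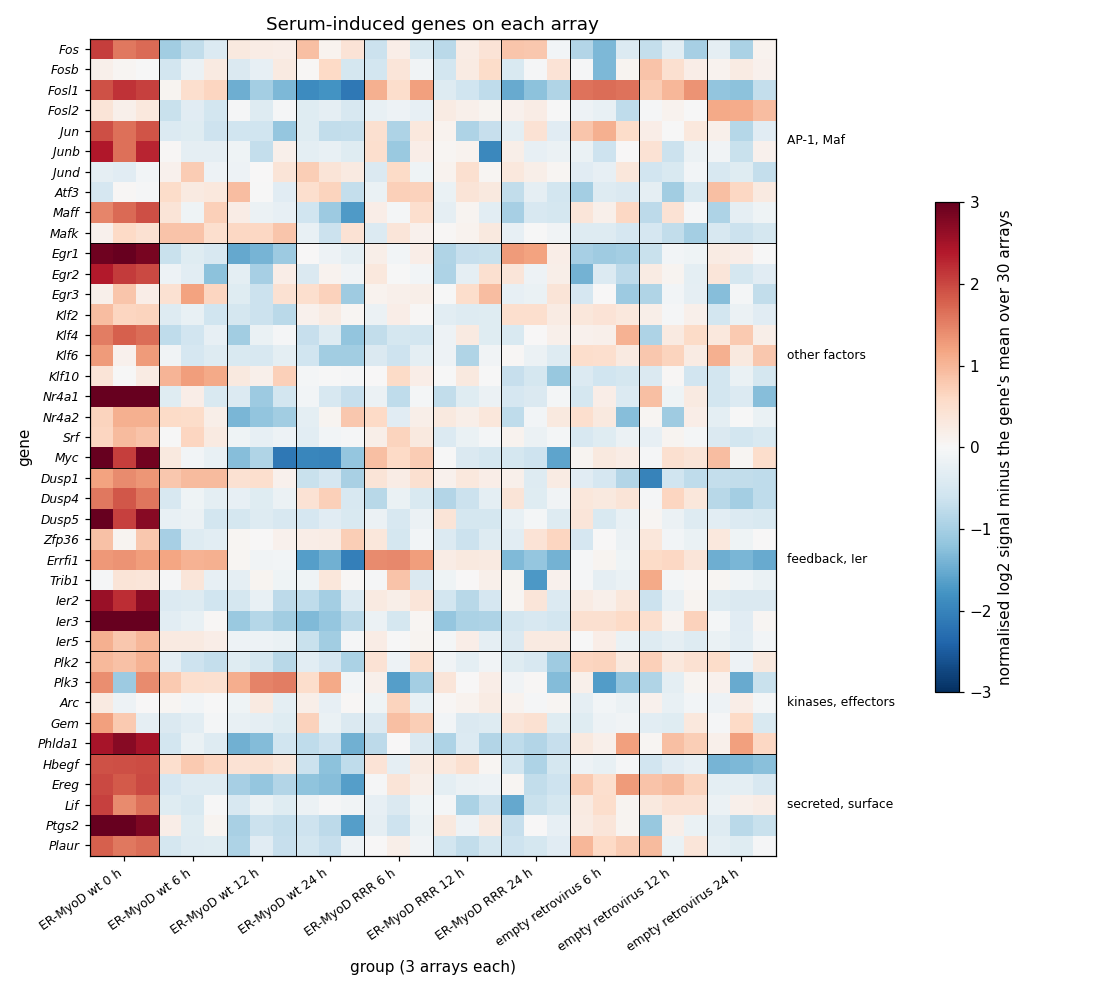
Normalised log2 signal of the 40 measured genes (rows, by role) on each of 30 arrays (columns, by group), minus the gene's mean over all arrays and drawn from -3 (blue) to 3 (red). The 3 arrays of ER-MyoD wt at 0 h are red for most rows, and for 24 genes they lie above all 27 other arrays.

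Most of the serum-induced genes were at their highest in ER-MyoD wt cells at 0 h in differentiation medium and were much lower at 6 h. Of the 40 genes, 27 had fallen by 6 h, 29 by 12 h and 28 by 24 h, at an adjusted p under 0.05 in limma's test over all genes. Of all genes, 17.7% passed in either direction at 6 h (9.51% higher and 8.2% lower), 20.4% at 12 h (10.5% and 9.86%) and 30.7% at 24 h (14.5% and 16.2%). The median log2 difference from 0 h was -1.34, -1.54 and -1.80 for the serum-induced genes and -0.05, -0.02 and -0.03 for all genes. For 24 of the 40 genes the 3 arrays at 0 h lay above all 27 later arrays, the 9 of empty retrovirus among them, which holds for 2.28% of all genes. For none of the 40 did they lie below all others (2.31% of all genes). All comparisons with 0 h share the same 3 arrays. Throughout, differences are on the scale of log2(signal + 16) after quantile normalization, ± gives the standard error of the model, and each group has n = 3. Printed signals are as deposited, and overlap between groups is judged on the normalised values.

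Among the AP-1 proteins, which pair as Fos and Jun dimers on DNA, and the small Maf proteins, 6 of 10 genes fell by 6 h, and 6 of 10 were also lower at 12 h and at 24 h. Fos dropped by 2.52 by 6 h (adjusted p 3.85e-06), Jun by 2.29 and Junb by 2.28. Fosl1, which encodes Fra-1, kept falling, with differences of -1.64 ± 0.19 at 6 h, -3.31 ± 0.19 at 12 h and -3.99 ± 0.19 at 24 h. Maff, a small Maf protein without a transactivation domain, had signals of 283, 344 and 416 at 0 h, 121, 84.1 and 163 at 6 h and 58.4, 31.4 and 24.1 at 24 h. The difference at 24 h was -2.83 ± 0.30 (adjusted p 1.14e-08), and no array at 24 h reached any at 0 h. Fosl2 (Fra-2) fell less, by 0.81 by 6 h. Jund, the Jun protein that is usually present in resting cells, differed in the other direction at 24 h (0.70 ± 0.23, adjusted p 0.0179), a call that was lost under median centring and with the deposited signals used unnormalised. Fosb, Atf3 and Mafk passed at none of the 3 times.

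**Figure D2:**
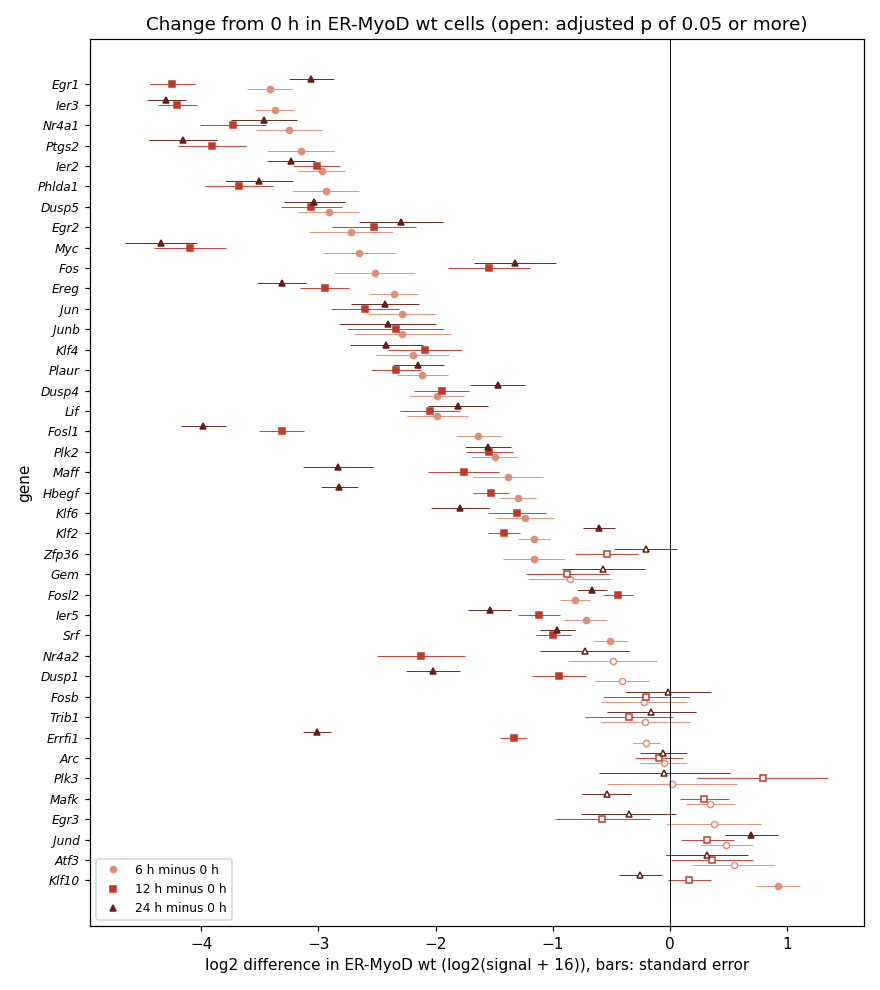
Log2 difference of ER-MyoD wt at 6 h (circles), 12 h (squares) and 24 h (triangles) from ER-MyoD wt at 0 h, for each gene, with standard errors; open symbols have an adjusted p of 0.05 or more. Egr1, Ier3, Myc, Ptgs2 and Fosl1 lie near -4 at their lowest, and Klf10 at 6 h and Jund at 24 h are the filled symbols to the right of 0.

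Of the 11 other transcription factors, 8 fell by 6 h and 1 rose. Egr1, the zinc finger factor often used as a readout of Erk activity, had signals of 3256, 3703 and 3139.6 at 0 h. It stood at 229, 282 and 267 at 6 h, 119, 135 and 158 at 12 h and 381, 339 and 295 at 24 h. The difference at 12 h was -4.25 ± 0.19 (adjusted p 8.51e-16). All later arrays of all 3 constructs were below the lowest array at 0 h, with ER-MyoD RRR at 24 h the next highest (889, 834 and 426). Nr4a1 (Nur77), an orphan nuclear receptor, had signals of 1201, 1216 and 1210.0 at 0 h and 85.4, 47.3 and 71.2 at 12 h, a difference of -3.73 ± 0.28 (adjusted p 4.82e-11). Its highest signal at any later time, 253, was on an empty retrovirus array at 12 h. Myc, which drives growth and cell cycle entry, differed by -2.65 ± 0.31 at 6 h, -4.10 ± 0.31 at 12 h and -4.34 ± 0.31 at 24 h. Egr2 differed by -2.72 ± 0.36 and Klf4, a factor of differentiation and pluripotency, by -2.20 ± 0.31 at 6 h. Srf itself fell less, by 0.51 at 6 h, where its arrays overlapped those at 0 h, and by 0.99 at 12 h. Klf10, a target of TGF-beta signalling, was the 1 gene of the 40 that rose by 6 h, by 0.92 (adjusted p 0.0005), and it differed by -0.25 at 24 h (adjusted p 0.357).

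Of the 9 feedback inhibitors and Ier genes, 6 fell by 6 h and 7 by 12 h and by 24 h. Ier2, a nuclear protein, had signals of 1225, 914 and 1325 at 0 h and 100.2, 68.6 and 140.3 at 24 h (difference -3.23 ± 0.20, adjusted p 2.81e-13). Ier3, a regulator of survival, differed by -3.37 ± 0.17 at 6 h and -4.30 ± 0.17 at 24 h. Dusp5, a nuclear phosphatase that removes phosphate from Erk, had signals of 258, 117 and 203 at 0 h and 8.22, 10.4 and 8.4 at 12 h. The latter lie below the constant of 16 added before the logarithm, so the difference of -3.06 ± 0.26 (adjusted p 5.25e-10) understates the ratio. Outside the 0 h group the highest Dusp5 signal of any array was 32.4.

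Some inhibitors fell late. Errfi1 (Mig6), which blocks the EGF receptor, had signals of 1636, 1713 and 1583 at 0 h and 1481, 1299 and 1353 at 6 h, a difference of -0.20 ± 0.12 that did not pass (adjusted p 0.283). It stood at 634, 558 and 579.6 at 12 h and 184, 203 and 144 at 24 h, with a difference of -3.01 ± 0.12 (adjusted p 1.54e-17). The groups at 12 h and 24 h overlapped neither each other nor the earlier ones. Dusp1 (Mkp1), a phosphatase for p38, Jnk and Erk, followed the same course, with differences of -0.41 (adjusted p 0.256), -0.95 and -2.02 at 6, 12 and 24 h. Zfp36 (tristetraprolin), which destabilises mRNAs with AU-rich elements, passed at 6 h only (-1.16), and differed by -0.21 at 24 h (adjusted p 0.651).

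The 5 secreted and surface proteins all fell by 6 h, and their 0 h arrays lay above every other array for all 5. Ptgs2 (Cox-2), the inducible enzyme of prostaglandin synthesis, had signals of 1419.6, 1125 and 867 at 0 h and 61.6, 45.3 and 28.4 at 24 h (difference -4.16 ± 0.29, adjusted p 2.23e-12). Hbegf, an EGF receptor ligand shed from the cell surface, had signals of 1863, 1938 and 1947 at 0 h, 651, 769.6 and 728 at 6 h and 279, 169 and 247 at 24 h (difference at 24 h -2.82 ± 0.16, adjusted p 2.73e-14). Hbegf fell in both intervals, and its arrays at the 3 times did not overlap. Ereg (epiregulin), another EGF receptor ligand, differed by -2.36 at 6 h and -3.31 at 24 h. The cytokine Lif differed by -1.98 and Plaur, the urokinase receptor, by -2.11 at 6 h.

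Of the 5 kinases and cytoplasmic effectors, Plk2, a polo-like kinase, and Phlda1, a pleckstrin homology domain protein, were lower at all 3 times (differences at 6 h of -2.94 for Phlda1 and -1.50 for Plk2). Plk3 passed at none. Arc and Gem had mean signals under 50 in every group, with no array above 21.0 for Arc and 33.1 for Gem, so the other 38 genes are those that would pass a filter on low signal.

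**Figure D3:**
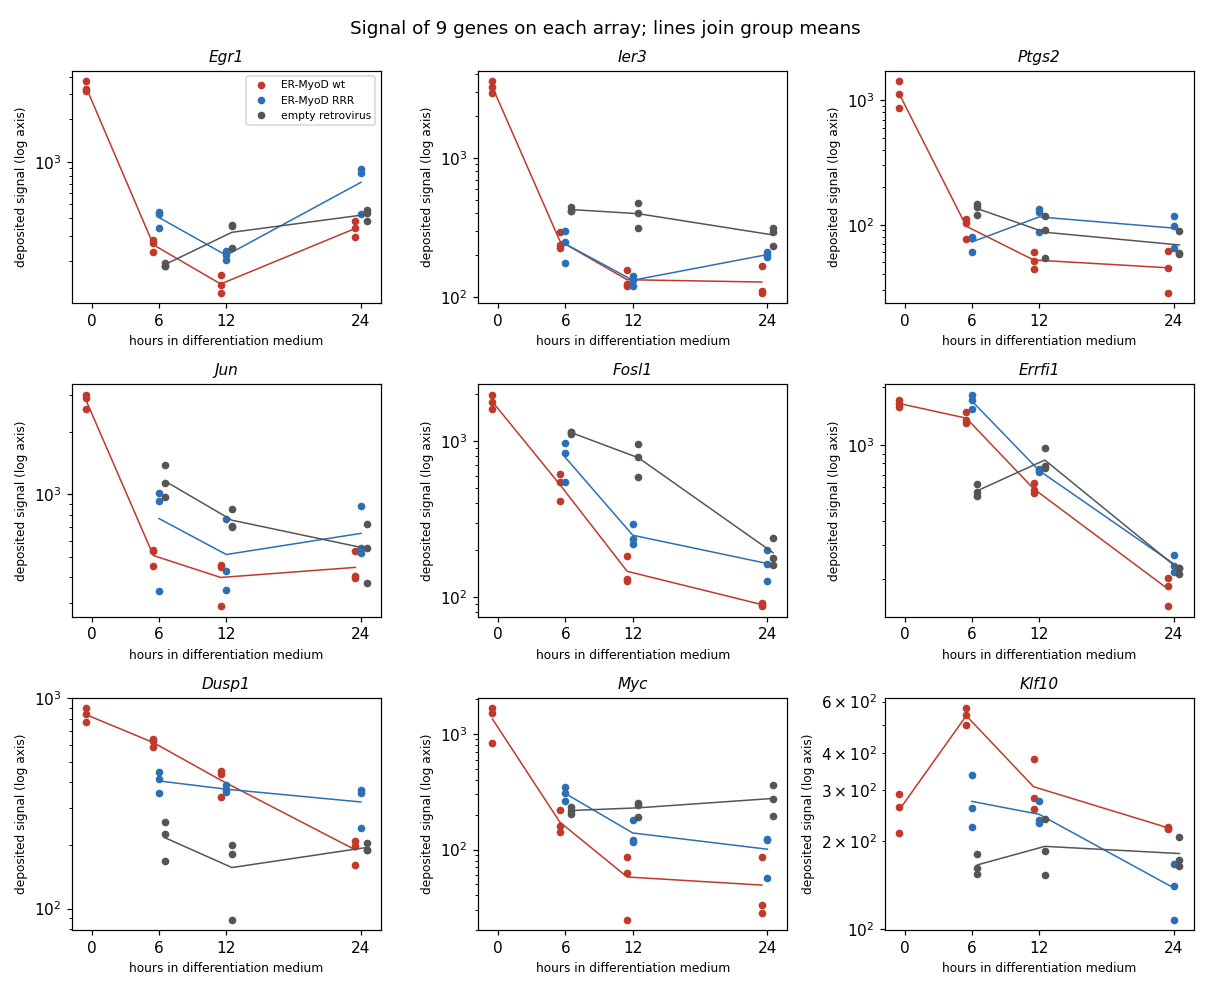
Deposited signal (log axis) of 9 genes on each array against hours in differentiation medium, with lines through the group means of ER-MyoD wt (red), ER-MyoD RRR (blue) and empty retrovirus (grey). Egr1, Ier3, Ptgs2 and Jun drop between 0 and 6 h in ER-MyoD wt, Errfi1 drops after 6 h, and Fosl1 and Myc are lower with ER-MyoD wt than with empty retrovirus at 12 h.

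The fall in ER-MyoD wt held under each alternative processing and with any 1 array left out, with 26 to 28 genes lower at 6 h and 28 to 30 lower at 12 h and at 24 h in every case. Of the fibroblast markers, 2 of 12 had fallen by 6 h and 6 of 12 by 24 h, with 3 higher at 24 h. Their part in the result was not tested.

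The second question is how these genes differed between cells with an ER-MyoD fusion and empty retrovirus cells of the same time. Effects of MyoD and of the hormone-binding domain fused to it cannot be told apart in this comparison. Below, with MyoD means with an ER-MyoD fusion. With ER-MyoD wt, 7 of the 40 genes were higher and 11 lower than with empty retrovirus at 6 h (12.7% of all genes passed, 6.51% higher and 6.21% lower). At 12 h, 5 were higher and 13 lower (15.4% of all genes, 7.16% and 8.26%), and at 24 h, 4 and 9 (25.4%, 11.4% and 14%). With ER-MyoD RRR, 5 were higher and 9 lower at 6 h (13.8% of all genes, 7.18% and 6.63%). At 12 h, 3 were higher and 10 lower (10.1% of all genes, 5.11% and 4.97%), and at 24 h, 7 and 7 (19%, 8.56% and 10.5%). Among the 13264 genes with a mean signal of at least 50 in 1 or more groups, to which 38 of the 40 belong, 17% passed for ER-MyoD wt at 6 h, 20.6% at 12 h and 33.7% at 24 h. Against these shares, the 45% of the 40 genes called at 6 h and at 12 h was higher, and the 32.5% at 24 h was near the background. For ER-MyoD RRR the shares of these brighter genes were 18.5%, 13.6% and 25.4%, beside 35%, 32.5% and 35% of the 40. Both MyoD comparisons use the same empty retrovirus arrays. Under median centring the splits were 7 higher and 6 lower for ER-MyoD wt at 6 h, 5 and 6 for ER-MyoD RRR at 6 h, 4 and 6 at 12 h, and 1 and 7 at 24 h, so that the balance of directions there depended on the scaling. That scaling moved the median of all genes by 0.11 (log2) for ER-MyoD wt at 6 h and for ER-MyoD RRR at 12 h. Without ER-MyoD RRR replicate 1, the count for that form at 24 h was 7, with 2 higher and 5 lower. Without the 3 arrays that stood apart, 4 were higher and 15 lower for ER-MyoD wt at 12 h, 4 and 10 at 24 h, and for ER-MyoD RRR 6 and 6 at 6 h and 3 and 8 at 12 h. The cell markers moved too: with ER-MyoD wt at 24 h, 9 of 10 muscle markers were higher than with empty retrovirus, and 9 of 12 fibroblast markers were lower and 1 higher. Their part in the differences described here was not tested.

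**Figure D4:**
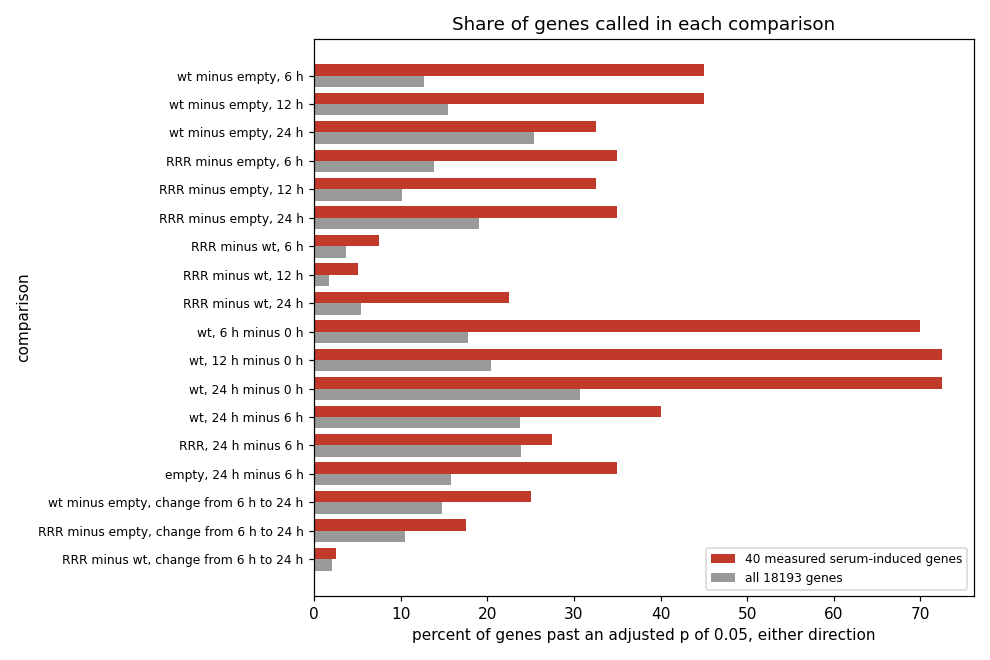
Percent of the 40 serum-induced genes (red) and of all 18193 genes (grey) with an adjusted p under 0.05, in either direction, in each of 18 comparisons. The red bars reach 70 to 72.5 in the comparisons with 0 h, against 17.7 to 30.7 for the grey ones.

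Fosl1, Myc, Ereg, Phlda1 and Klf6 were the genes furthest below empty retrovirus. Fosl1 had signals of 126, 182 and 129.9 in ER-MyoD wt at 12 h, 294, 235 and 218 in ER-MyoD RRR and 586, 794 and 963 with empty retrovirus. The ER-MyoD wt difference was -2.30 ± 0.19 (adjusted p 4.17e-10), that of ER-MyoD RRR -1.62 ± 0.19 (adjusted p 4.8e-07). All 3 constructs were separate at 12 h, with empty retrovirus highest and ER-MyoD wt lowest. A second, weaker Fosl1 probe set differed by -1.79 for ER-MyoD wt at 12 h and by -0.01 at 24 h, where the main one differed by -0.90. Jun was lower with ER-MyoD wt at 6 h (-1.28) and 12 h (-0.95) and with ER-MyoD RRR at 6 h (-0.85). The Jun signals of ER-MyoD RRR at 6 h were 1019, 345 and 932, against 1139, 1375 and 968 with empty retrovirus. The lowest was on replicate 2, the array of high 3′ to 5′ ratio. Fosl2 had signals of 806, 907 and 688 in ER-MyoD wt and 1889, 2119.6 and 1878 with empty retrovirus at 24 h (difference -1.43 ± 0.13, adjusted p 6.83e-10). The ER-MyoD RRR arrays (1062, 1120.4 and 959) lay between, without overlap, at -0.95 from empty retrovirus. The other Fosl2 probe set, with lower signal, differed by 0.26 there, so the probe sets of this gene disagreed.

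Among the other transcription factors, Myc and Klf6 were lower and Klf10 higher with MyoD. Myc had signals of 32.9, 28.3 and 86.3 in ER-MyoD wt at 24 h, 123, 122 and 56.7 in ER-MyoD RRR and 364, 194 and 273 with empty retrovirus. The differences were -2.20 ± 0.31 (adjusted p 1.73e-06) for ER-MyoD wt and -1.41 ± 0.31 (adjusted p 0.00107) for ER-MyoD RRR, and neither MyoD group overlapped the control. At 6 h Myc had differed by -0.21 (adjusted p 0.785) and 0.56 (adjusted p 0.27). Klf6 had signals of 211, 139 and 157 in ER-MyoD wt, 326, 287 and 245 in ER-MyoD RRR and 662, 399 and 577 with empty retrovirus at 24 h (ER-MyoD wt difference -1.62 ± 0.25, adjusted p 6.7e-06). The 3 constructs were separate, with ER-MyoD wt lowest. Klf6 passed as lower in all 6 comparisons with empty retrovirus. Klf4 was lower with ER-MyoD wt at 6 h (-0.97) and 24 h (-1.17), and with ER-MyoD RRR at 6 h (-1.05). Klf2, an endothelial and quiescence-linked factor, was lower at 6 h (-0.76) and 12 h (-0.75) and higher at 24 h (0.50) with ER-MyoD wt. At 24 h Klf2 was also higher with ER-MyoD RRR (0.77).

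Klf10 exceeded empty retrovirus by more than any other of the 40 genes at 6 h in ER-MyoD wt. Its signals were 501, 569 and 541 in ER-MyoD wt, 223, 337 and 261 in ER-MyoD RRR and 181, 155 and 162 with empty retrovirus. The differences from empty retrovirus were 1.64 ± 0.18 (adjusted p 1.35e-07) and 0.77 ± 0.18 (adjusted p 0.00404). The 3 constructs did not overlap, and ER-MyoD RRR stood between the others. Srf was higher with both MyoD forms at 6 h (0.65 and 0.72). Egr1 was higher with ER-MyoD RRR at 6 h (1.12) and 24 h (0.75, with overlapping arrays), and lower with ER-MyoD wt at 12 h (-1.05). Egr3 passed with ER-MyoD wt at 6 h (1.29, adjusted p 0.0319), a call that was lost when any of 4 arrays was left out. Nr4a1 was lower with ER-MyoD wt at 12 h (-1.03). Its control signals there were 253, 106 and 154, the highest on replicate 1, an array that stood apart.

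Mafk, a small Maf protein, had signals of 347, 353 and 411 in ER-MyoD wt at 12 h, 236, 231 and 276 in ER-MyoD RRR and 171, 123 and 104 with empty retrovirus. The difference was 1.45 ± 0.21 (adjusted p 6.2e-06) for ER-MyoD wt and 0.89 ± 0.21 for ER-MyoD RRR. Each MyoD group was separate from the control and from the other. Jund was higher at 24 h with both MyoD forms (0.99 and 0.71). Atf3, a stress-induced repressor, passed once, as lower with ER-MyoD RRR at 24 h (-1.12).

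**Figure D5:**
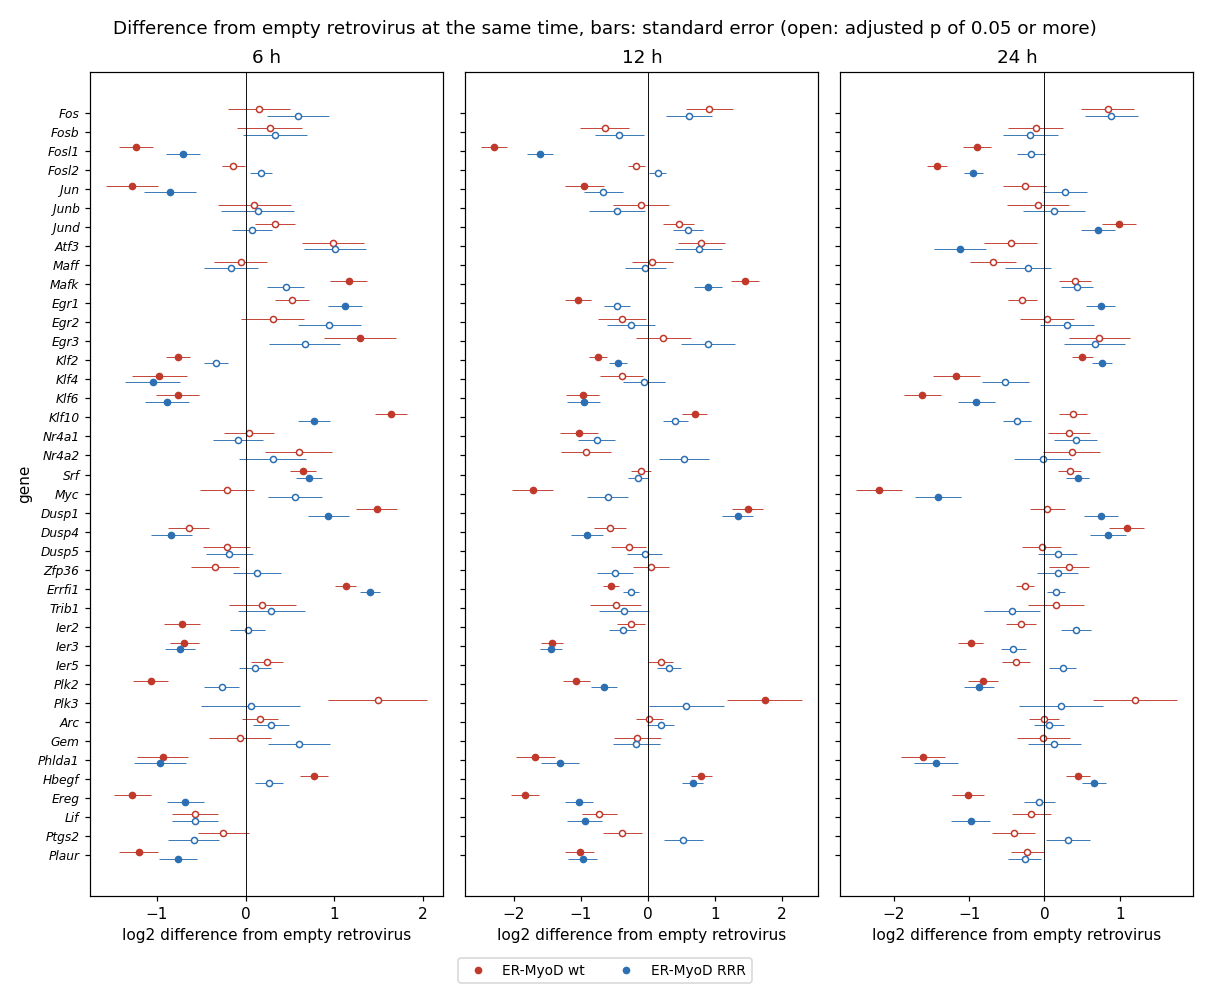
Log2 difference of ER-MyoD wt (red) and ER-MyoD RRR (blue) from empty retrovirus at 6, 12 and 24 h for each gene, with standard errors; open symbols have an adjusted p of 0.05 or more. Fosl1, Myc, Phlda1 and Ereg lie to the left of 0 at 12 h, and Dusp1 and Mafk to the right.

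Among the feedback genes, Dusp1 was higher and Ier3 lower with MyoD. Dusp1 had signals of 435, 451 and 340.2 in ER-MyoD wt at 12 h, 357, 387 and 365 in ER-MyoD RRR and 88.6, 199.7 and 182 with empty retrovirus, whose replicate 1 is an array that stood apart. The differences were 1.49 ± 0.23 (adjusted p 1.7e-05) and 1.33 ± 0.23 (adjusted p 0.000138), and every MyoD array exceeded every control array. Without that control array the ER-MyoD wt difference was 1.05, still past the threshold. Dusp1 was also higher with ER-MyoD wt at 6 h (1.48), but differed by 0.04 at 24 h (adjusted p 0.942). With ER-MyoD RRR, Dusp1 was higher than with empty retrovirus at 6 h (0.94) and also at 24 h (0.75, adjusted p 0.0194). Errfi1 was higher at 6 h with both forms (1.13 and 1.41) and lower with ER-MyoD wt at 12 h (-0.55). Dusp4 (Mkp2), another nuclear phosphatase, was lower with ER-MyoD RRR at 6 h (-0.84) and 12 h (-0.91) and higher with both forms at 24 h (1.09 and 0.85). Ier3 had signals of 121, 134 and 143 in ER-MyoD RRR at 12 h, 124, 156 and 121 in ER-MyoD wt and 401, 316 and 478 with empty retrovirus. The differences were -1.45 ± 0.17 (adjusted p 2.92e-07) with ER-MyoD RRR and -1.43 ± 0.17 with ER-MyoD wt, and the MyoD forms overlapped each other but not the control.

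Among the effectors, Phlda1 had signals of 75.7, 87.5 and 140.3 in ER-MyoD wt at 12 h, 117, 167 and 119 in ER-MyoD RRR and 259, 473 and 411 with empty retrovirus. The difference of ER-MyoD wt was -1.69 ± 0.29 (adjusted p 7.63e-05). The MyoD forms overlapped each other and lay below every control array. Phlda1 was lower in all 6 comparisons with empty retrovirus, as Klf6 was. Plk3, a stress-responsive polo-like kinase, had signals of 129, 178 and 171 in ER-MyoD wt, 67.4, 51.1 and 58.6 in ER-MyoD RRR and 27.7, 37.1 and 57.3 with empty retrovirus at 12 h (ER-MyoD wt difference 1.74 ± 0.56, adjusted p 0.0311). The ER-MyoD wt arrays lay above the others, which overlapped. That call was lost with a constant of 4 in place of 16, without the 3 arrays that stood apart (adjusted p 0.107), and when any of 5 arrays was left out. The signals of Plk3 also varied widely within groups, from 13.7 to 154 at 0 h. Plk2 was lower with ER-MyoD wt at all 3 times (-1.07, -1.07 and -0.82), but a second Plk2 probe set with low signal differed by 0.77 at 12 h. With ER-MyoD RRR, Plk2 was also lower at 12 h (mean signal 1031, against 1493 with empty retrovirus) and 24 h (704, against 1234). Both of these ER-MyoD RRR differences reversed with the mean of all probe sets.

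The EGF receptor ligands moved in opposite directions. Ereg had signals of 45.4, 38.6 and 46.7 in ER-MyoD wt at 12 h, 81.3, 89.1 and 92.9 in ER-MyoD RRR and 224, 227 and 185 with empty retrovirus. The differences were -1.83 ± 0.21 (adjusted p 1.22e-07) and -1.03 ± 0.21 (adjusted p 0.000973), and the 3 constructs were separate. Hbegf was higher with ER-MyoD wt at 6 h (0.77), 12 h (0.80) and 24 h (0.45). The last had an adjusted p of 0.0349 that several settings moved past 0.05. With ER-MyoD RRR, Hbegf was also higher at 12 h (0.665) and 24 h (0.662), but did not pass at 6 h (0.268). Plaur was lower with both forms at 6 h and 12 h (-1.21 and -0.76 at 6 h). Lif was lower with ER-MyoD RRR at 12 h (-0.95) and 24 h (-0.98). Ptgs2 passed in none of these comparisons.

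The study's mutant asks whether these genes need the acetylation sites of MyoD. At 6 h, 2 of the 40 were higher and 1 lower with ER-MyoD RRR than with ER-MyoD wt. Of all genes, 3.66% passed there (1.63% higher and 2.03% lower). At 12 h, 2 were higher and 0 lower (1.75% of all genes, 0.874% and 0.879%). At 24 h, 8 were higher and 1 lower (5.38% of all genes, 3.34% and 2.04%). These were 7.5%, 5% and 22.5% of the 40, beside 4.91%, 2.37% and 7.22% of the brighter genes. At an unadjusted p under 0.05 the numbers in either direction were 15, 12 and 15. At 6 h, Klf10 was lower (-0.87 ± 0.18, adjusted p 0.00657), and Ier2 (0.74 ± 0.20, adjusted p 0.036) and Plk2 (0.80 ± 0.20, adjusted p 0.0203) were higher. At 12 h, Ereg (0.80 ± 0.21, adjusted p 0.0415) and Nr4a2 (Nurr1), a nuclear receptor, were higher. Nr4a2 had signals of 18.2, 22.4 and 24.4 in ER-MyoD wt, 89.5, 80.5 and 93.1 in ER-MyoD RRR and 102, 24.7 and 89.0 with empty retrovirus (difference between the MyoD forms 1.46 ± 0.38, adjusted p 0.0415). The ER-MyoD wt arrays lay below those of ER-MyoD RRR, while empty retrovirus overlapped both. The other 5 Nr4a2 probe sets differed by -0.90 to 0.66 in this comparison, and with the mean over all probe sets the adjusted p was 0.561. The call was also lost when each of the 6 arrays compared was left out in turn.

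At 24 h the genes with more signal in ER-MyoD RRR came from several roles. Egr1 had signals of 889, 834 and 426 in ER-MyoD RRR and 381, 339 and 295 in ER-MyoD wt (difference 1.04 ± 0.19, adjusted p 0.00089). These arrays did not overlap, although the lowest ER-MyoD RRR array lay close to the highest of ER-MyoD wt. Ereg followed (0.95 ± 0.21, adjusted p 0.00485), then Ier2 (0.73), Fosl1 (0.72), Ier5 (0.62), Ier3 (0.57), Fosl2 (0.48) and Errfi1 (0.42), with adjusted p from 0.0226 to 0.043. The arrays of Ier2 and Ier5 overlapped. Klf10 was lower (-0.74 ± 0.18, adjusted p 0.0139). A second Fosl1 probe set differed by -0.71, against the main one.

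The calls between the MyoD forms depended on the setting. With only the 6 arrays compared in the model, no gene passed at 6 h or at 24 h. With median centring, 2 were higher and 1 lower at 24 h, 0 passed at 12 h, and at 6 h the split turned to 0 higher and 2 lower. At 24 h the count fell from 9 to 3 without ER-MyoD wt replicate 1 and to 4 without ER-MyoD RRR replicate 1 or 2. At 12 h, 0 or 1 passed when each array compared was left out in turn. At 6 h, 5 genes passed without the array of high 3′ to 5′ ratio. Without the third replicate of ER-MyoD RRR, or the second or the third of ER-MyoD wt, 1 passed. The fibroblast markers moved with the 24 h result: 8 of 12 passed as higher with ER-MyoD RRR and 0 as lower, with summed signals of 49078 to 57490 against 33234 to 43595. Of the 10 muscle markers, 1 passed, as lower, and the differences of all 10 were negative (median -0.565). The part of either in these differences was not tested.

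Between 6 h and 24 h, several of these genes fell with all 3 constructs. In ER-MyoD wt, 13 of the 40 fell and 3 rose (23.8% of all genes passed, 12.4% lower and 11.4% higher). In ER-MyoD RRR, 9 fell and 2 rose (23.9% of all genes, 12.9% and 11%), and with empty retrovirus 11 fell and 3 rose (15.8%, 7.67% and 8.09%). The share of 27.5% for ER-MyoD RRR stood close to that of all genes and below the 32% of the brighter genes. With the 6 arrays of ER-MyoD RRR alone in the model, 6 genes fell and 0 rose, and with median centring 9 fell and 0 rose. Fosl1, Errfi1, Hbegf and Ereg fell with each construct, with Fosl1 differences of -2.35 in ER-MyoD wt, -2.16 in ER-MyoD RRR and -2.69 with empty retrovirus. Egr1 rose with empty retrovirus (1.17) and in ER-MyoD RRR (0.80), and differed by 0.35 in ER-MyoD wt (adjusted p 0.216). Fos (1.20), Zfp36 (0.95) and Klf2 (0.56) rose in ER-MyoD wt. The Fos signals there at 6 h were 8.04, 16.7 and 20.3, around the added constant of 16. Fosl2 (1.44) and Atf3 (1.21) rose with empty retrovirus.

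Whether the difference from empty retrovirus itself changed between 6 h and 24 h was tested as an interaction. It changed upwards for 3 of the 40 genes and downwards for 7 with ER-MyoD wt (14.7% of all genes passed, 6.45% and 8.24%). With ER-MyoD RRR it changed upwards for 2 and downwards for 5 (10.5%, 4.55% and 5.93%). These were 25% and 17.5% of the 40, not far above the 19.7% and 14.1% of the brighter genes. Dusp4 changed by 1.73 ± 0.33 (adjusted p 0.00035) with ER-MyoD wt and 1.68 ± 0.33 (adjusted p 0.000766) with ER-MyoD RRR. Its signals fell with empty retrovirus from 291, 283 and 295 at 6 h to 133, 107 and 129 at 24 h, while in ER-MyoD wt they were 141, 189 and 166 and then 304, 366 and 159.5. Every ER-MyoD wt array lay below every control array at 6 h and above them at 24 h. The 6 h difference itself had an adjusted p of 0.0738. Myc changed the other way (-1.99 and -1.97), as did Errfi1 (-1.39 and -1.25). The difference between ER-MyoD RRR and ER-MyoD wt changed for 1 gene (2.03% of all genes passed, 1.33% upwards and 0.704% downwards), Dusp1 (1.26 ± 0.32, adjusted p 0.0369). That 1 gene is 2.5% of the 40, near the share of all genes. Dusp1 signals were 414, 356 and 445 in ER-MyoD RRR and 585, 625 and 639.8 in ER-MyoD wt at 6 h. At 24 h they were 354, 242 and 368 in ER-MyoD RRR and 199, 210.4 and 162 in ER-MyoD wt. The ER-MyoD RRR arrays lay below those of ER-MyoD wt at 6 h and above them at 24 h, without overlap. Neither difference passed on its own (-0.55, adjusted p 0.214, at 6 h and 0.71, adjusted p 0.0694, at 24 h). The call was lost under median centring and when any of 10 of the 12 arrays was left out, and without the 3 arrays that stood apart 4 genes passed.

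Of the 40 genes, 11 passed in none of the 9 comparisons between constructs: Fos, Fosb, Junb, Maff, Egr2, Dusp5, Zfp36, Trib1, Arc, Gem and Ptgs2. Fos, Junb, Maff, Egr2, Dusp5, Zfp36 and Ptgs2 were among those that fell from 0 h. Fos differed from empty retrovirus at 12 h by 0.92 ± 0.35 with ER-MyoD wt (adjusted p 0.0776), and its signals outside 0 h were low, from 5.27 to 88.0. Fosb, Trib1, Arc and Gem passed in none of the 18 comparisons. Trib1, a pseudokinase, and Egr3 have a second probe set each with lower signal, with differences of -2.66 and -2.23 from 0 h to 12 h, where the main ones differed by -0.34 and -0.58.

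Genes around this set are given for comparison. Of 24 genes of the upstream Erk and Srf pathway, 17 were measured, and 2 rose and 5 fell by 6 h in ER-MyoD wt (17.7% of all genes passed), with a median difference of -0.06. Those with the smallest p were Map2k2 (Mek2, -0.72), the receptor Fgfr1 (-1.07), the Srf partner Elk3 (-0.89) and Rps6ka3 (Rsk2, 1.08). With ER-MyoD wt at 24 h, 3 were higher and 6 lower than with empty retrovirus (25.4% of all genes passed), among them Fgfr1 (-2.32), Map2k1 (Mek1, 1.42), Elk3 (-1.79) and Map2k2 (0.71). Between the MyoD forms at 24 h 1 was higher with ER-MyoD RRR, Pdgfrb (1.02), which is also among the fibroblast markers. That 1 of 17 is near the 5.38% of all genes.

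Of 50 other genes known to be induced by serum, 47 were measured. By 6 h in ER-MyoD wt 26 of them fell and 5 rose (17.7% of all genes passed), with a median of -0.80, and by 24 h 25 fell and 7 rose (30.7%). The chemokines Ccl2 (-2.58) and Cxcl1 (-3.40) and the matricellular genes Ccn1 (-3.13) and Ccn2 (-5.09) had the smallest p at 6 h. With ER-MyoD wt at 6 h, 10 were higher and 10 lower than with empty retrovirus (12.7% of all genes passed). Ccl2 was lower (-2.01), while Spry1, an inhibitor of receptor tyrosine kinase signalling (2.29), Gadd45b (2.42) and the cytokine Il6 (2.75) were higher. At 24 h 11 were higher with ER-MyoD RRR than with ER-MyoD wt and 0 lower (5.38% of all genes passed), with Ccl2 (1.36), Ccl7 (1.50), Ccn1 (1.08) and Cebpb (0.88) leading by p.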

How the data were processed

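For every array the authors deposited a linear intensity for each probe set. Which software and scaling they used was not given in the sources used here. Deposited intensities ranged from 0.0474 to 20986, and the mean of each array without the top and bottom 2% of probe sets was 150, so the arrays had been scaled to each other.

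From these, 64 of 45101 probe sets were left out as controls. Quantile normalization over the other 45037 and log2(signal + 16) followed, so that log2 differences of dim genes are understated. Of these probe sets, 34945 had 1 gene symbol, 932 several and 9160 none here. The symbols may be old. The probe set with the highest mean stood for a gene, which left 18193 genes, with no filter on low values. The linear model, with a mean for each of the 10 groups, used all 30 arrays (limma 3.58.1, R 4.3.3, lmFit, eBayes with trend, 20 residual degrees of freedom). It was tried on simulated independent normal noise, for the comparison of 6 h with 0 h in ER-MyoD wt only. Changes were simulated only in genes of higher signal, so dim genes and the interaction tests were not covered. Tests were two-sided, with Benjamini-Hochberg adjustment over all genes within each of 18 comparisons and a threshold of 0.05. Figures were drawn with Python 3.11.15, matplotlib 3.10.9 and pandas 2.3.3.

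Values of each array are given for up to 12 genes between constructs and 8 more between times that passed, had a log2 difference of at least 1 and did not overlap, by size, together with the other groups at that time. Of related lists, up to 4 genes with the smallest p are named. The values of Dusp4 and of Dusp1 at 6 h and 24 h were added after they were seen. The genes and lists were chosen with earlier results of these data known. Same-numbered arrays of different groups deviated together little (correlation -0.107 to 0.176, median 0.013, over 135 pairs), so the numbers were not taken as pairs. The median was -0.009 over 270 pairs of other numbers. A correlation over 0.1 was somewhat more frequent with the same number (7 of 135 pairs against 6 of 270). The alternatives were median centring, the deposited signals with no further normalization, a constant of 4, a filter at a mean signal of 50, the mean of all probe sets, only the arrays compared, a replicate block, leaving out each array, and leaving out the 3 arrays that stood apart.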

Additional observations from a re-analysis of the deposited data

Results flagged for a closer look

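For some genes the difference between constructs at 6 h and at 24 h differed by an interaction test in the limma model (adjusted p under 0.05). For ER-MyoD wt against empty retrovirus, the change from 6 h to 24 h was downwards for Myc (-1.99), Dusp1 (-1.45), Atf3 (-1.44), Errfi1 (-1.39), Fosl2 (-1.29), Klf10 (-1.26) and Egr1 (-0.81), and upwards for Plaur (0.98), Klf2 (1.26) and Dusp4 (1.73). For ER-MyoD RRR against empty retrovirus, which uses the same control arrays, it was downwards for Atf3 (-2.14), Myc (-1.97), Errfi1 (-1.25), Klf10 (-1.13) and Fosl2 (-1.12), and upwards for Klf2 (1.10) and Dusp4 (1.68). For ER-MyoD RRR against ER-MyoD wt it was upwards for Dusp1 (1.26). For Atf3 with ER-MyoD wt the adjusted p was 0.0499.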

How the results depend on the processing

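Of 249 differences of single genes past the threshold, 163 kept their direction and their side of it in every alternative, 84 lost it in 1 or more and 3 reversed, 1 of them among the 84. The reversals were those of Plk2 with the mean of all probe sets: 0.059 for ER-MyoD RRR against empty retrovirus at 12 h, 0.023 at 24 h and 0.07 from 6 h to 24 h. Counts of genes past the threshold stayed within 1.5 times, except as follows, and the cause was not tested. Median centring gave 8 for ER-MyoD RRR against empty retrovirus at 24 h, and 0, 3 and 0 for the MyoD forms at 12 h, at 24 h and in the change from 6 h to 24 h. Unnormalised signals gave 1 for the MyoD forms at 12 h. Only the arrays compared gave 0 at 6 h and 0 at 24 h for the MyoD forms, and 6 for ER-MyoD RRR from 6 h to 24 h. Leaving out the 3 arrays that stood apart, an alternative chosen after seeing the data, gave 6 at 6 h and 4 for the change. Leaving out 1 array gave 7 to 13 for ER-MyoD RRR against empty retrovirus at 24 h, and for the MyoD forms 1 to 5 at 6 h, 0 to 1 at 12 h, 3 to 7 at 24 h and 0 to 2 for the change. A fit with the replicate number as a block kept 247 of the 249 differences, with 13 genes for ER-MyoD wt against empty retrovirus at 24 h and 10 between the MyoD forms at 24 h. Median centring moved the share of higher genes among all genes called between the MyoD forms at 24 h from 62% to 37.1%. Signals near background, as for Arc, Gem, Dusp5 and Plk3, limit what could be seen.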
